A study of Mus musculus with 6 samples.

Results

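The genes described here are p53 targets and regulators, measured in mouse Foxp3+ T cells that were induced to the regulatory fate in culture (iTreg). They are a list of 36 named genes, of which 35 had a mean of at least 1 FPKM (fragments per kilobase, a level corrected for transcript length and library size) over the 6 libraries, out of 12113 genes at that level. The group was selected on the FPKM contrast of PGE2 with vehicle, because several of its genes stood among those with lower values after PGE2. All values of that contrast are therefore given for these genes as a description, with no test and as support for nothing. Ak1, at a mean of 1.14 FPKM, lay just inside the limit of 1 FPKM, followed by Zfp365 at 2.37. The 1 gene outside was Eda2r, a receptor for an ectodysplasin isoform, at 0.0442.

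Splenic CD4+ T cells came from C57BL/6 mice with the Foxp3-DTR/EGFP allele, which puts a diphtheria toxin receptor and a green fluorescent protein under control of Foxp3, the gene that defines regulatory T cells. The cells of both groups were grown for 2 days on plate-bound anti-CD3 with soluble anti-CD28 and TGF-β. They were then given vehicle (DMSO) or PGE2 (prostaglandin E2, which raises cyclic AMP through its receptors EP2 and EP4) at 100 nM for 6 h. GFP-positive cells were sorted, and polyadenylated RNA was sequenced from 3 libraries per group. The labels state neither the age of the mice nor whether replicates came from separate mice or cultures, so the spread between replicates may be technical only.

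The transcription factor p53 is held at low levels by Mdm2, a ubiquitin ligase that marks it for degradation, and by the related Mdm4, which blocks its activation domain. DNA damage and other stresses release p53, which then binds paired copies of a short palindromic element and turns on genes for cell cycle arrest, cell death, DNA repair and metabolism, as well as Mdm2 itself, which closes a feedback loop. In activated T cells p53 is known as a brake on proliferation and as a promoter of cell death.

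The libraries differed in depth, which was 3.996 to 5.121 gigabases of fragments with vehicle and 4.542 to 5.446 with PGE2, and replicate 3 was the shallowest in each group. Counts are not at hand, so no interval for counting error is given. Markers of T and regulatory T cells were all present (8 of 8 over 1 FPKM), with a summed level of 1720 to 1790 FPKM with vehicle and 1870 to 1940 with PGE2. They did not move together. Ctla4 differed most, with means of 199 FPKM with vehicle and 345 with PGE2. Il2ra was lower with PGE2 (691 and 640), Lck was about equal (259 and 260), and Foxp3 was higher (92.1 and 115). Of 5 CD8 T and NK cell markers 2 were over 1 FPKM, and 2, Ncr1 and Klrb1c, were listed at 0 in every library. The summed level of the 5 was 6.19 to 8.06 FPKM with vehicle and 8.46 to 11.1 with PGE2. Within this sum Klrd1 had means of 1.46 and 3.1 FPKM, Cd8b1 of 4.79 and 5.6, and Cd8a of 0.689 and 0.702. The summed level of 5 B cell markers was 3.84 to 5.7 FPKM with vehicle and 3.55 to 4.33 with PGE2, and only Cd79b was over 1 FPKM. None of the 6 myeloid markers and none of the 5 erythroid and platelet markers reached a mean of 1 FPKM. The part of these markers in the values below was not tested. In sorted populations, fewer cells that express a gene and less RNA per cell cannot be told apart.

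Most of the 35 genes had lower values with PGE2, by modest amounts. The fitted change was below 0 for 29 of 35, against 56.7% of all tested genes, and the median log2 change was -0.27, against -0.03 for all tested genes. The FPKM of all 3 PGE2 libraries lay below that of all 3 vehicle libraries for 19 of the 35, where 11.9% of all tested genes did so. It lay above for 1, Sesn1, where 7.81% of all tested genes did so. In the limma fit over all genes, 3 of the 35 (Aen, Ccng1 and Zmat3) were called lower, where 0.239% of all tested genes were called lower, and 0 were called higher, where 0.57% were. Nothing is read from these counts, since the contrast chose the genes. Log2 changes are differences of log2(FPKM + 1), PGE2 minus vehicle, which understates the change of low genes.

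The count of 3 depended on each library. Leaving out vehicle replicate 1, vehicle replicate 2, PGE2 replicate 2 or PGE2 replicate 3 brought it to 0. Leaving out PGE2 replicate 1 brought it to 1 (Aen), and leaving out vehicle replicate 3 to 2 (Bbc3 and Phlda3). Over all 12113 tested genes, 29 were called lower in the full fit. Leaving out vehicle replicate 1, 2 or 3 brought that number to 4, 4 and 16, and PGE2 replicate 1, 2 or 3 to 7, 6 and 6. With the replicate number as a block, which takes out what libraries of the same number share, 6 of the 35 were called lower, namely Aen, Bbc3, Ccng1, Phlda3, Zfp365 and Zmat3, against 1.49% of all tested genes. From read coverage in place of FPKM, 3 were called lower (Aen, Ccng1 and Zfp365), against 0.363% of all tested genes.

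**Figure D1:**
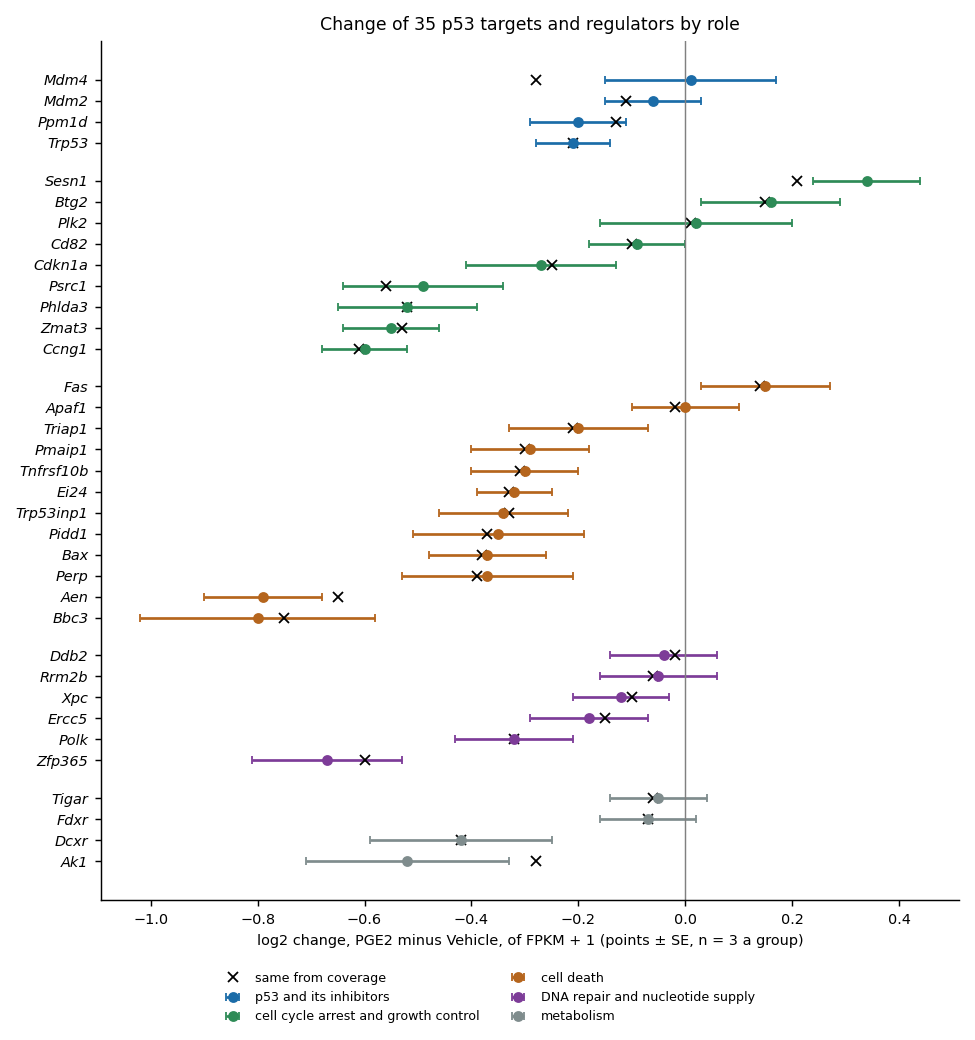
Log2 change of FPKM + 1 (PGE2 minus vehicle, horizontal axis) for each of the 35 genes, grouped by role; points with bars are the fitted change and its standard error from 3 libraries a group, and crosses the same from read coverage. Values run from -0.8 (Bbc3) to 0.34 (Sesn1), most lie left of 0, and the cross of Mdm4 lies far from its point.

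The element that p53 binds is a pair of decamers, each called the p53 half-site consensus. The RefSeq promoter table (GRCm38.p6; 250 bases before to 50 after each start) holds 28 of the 36 genes. It lacks Ddb2, Perp, Pmaip1, Rrm2b, Tnfrsf10b, Trp53inp1, Xpc and Zmat3. The genes were listed as p53 targets and regulators, so their shares of matches are a description and support nothing. A perfect decamer was found in 10 of these 28, Aen, Bax, Ccng1, Cdkn1a, Ei24, Mdm2, Polk, Ppm1d, Sesn1 and Trp53, against 9.55% of all 27025 genes in the table. The consensus reads the same on both strands, so 1 search covers both. A pair of decamers with up to 13 bases between them and at most 3 mismatches in 20 bases was found in 13 of 28, against 17.4% of all genes. In every pair counted, both decamers had to keep the C and the G of the consensus core. With at most 2 mismatches it was found in 5 of 28, namely Bax, Ccng1, Cdkn1a, Sesn1 and Zfp365, against 4.71%. The 28 genes have 42 windows, and all genes have 32851. A perfect decamer was in 11 of the 42 windows, against 8.36% of all windows. A pair with at most 3 mismatches was in 15 of the 42, against 15.6%. A match describes letters and is not a binding site, and no match says only that these letters are not in this window.

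For 5 of the genes with a pair, 1 pair each is shown. It is the one with the fewest bases between its decamers that lies wholly before the start. Ccng1 and Aen are among the genes called lower, and Zmat3, also called lower, has no window to show. Cdkn1a and Bax are abundant effectors of arrest and death that were not called. Sesn1, not called either, is the gene with the opposite difference. Capitals mark the paired decamers, 5′ to 3′ on the strand of the gene. The stretch shown for Ccng1 is chr11:40755437-40755506 (minus strand, upstream of the gene), and its pair, from 40755462 to 40755481, has 1 mismatch. For Aen only the pair itself is shown, chr7:78895937-78895956 (plus strand, within an annotated exon of Aen), with 3 mismatches. The stretch for Cdkn1a is chr17:29090903-29090972 (plus strand, upstream of the gene), and its pair, from 29090928 to 29090947, has 1 mismatch. The stretch for Bax is chr7:45467054-45467124 (minus strand, upstream of Bax in an intron of the gene model Gm45808), and its pair, from 45467079 to 45467099, has 2 mismatches and 1 base between the decamers. The stretch for Sesn1 is chr10:41887241-41887310 (plus strand, upstream of an internal start in an intron of Sesn1), and its pair, from 41887266 to 41887285, has 3 mismatches and no bases between the decamers, so it is not the Sesn1 pair counted above at no more than 2 mismatches.
Ccng1: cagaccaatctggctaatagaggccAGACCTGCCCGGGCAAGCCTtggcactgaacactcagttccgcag
Aen: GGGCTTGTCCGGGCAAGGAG
Cdkn1a: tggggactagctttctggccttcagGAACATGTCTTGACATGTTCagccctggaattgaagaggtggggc
Bax: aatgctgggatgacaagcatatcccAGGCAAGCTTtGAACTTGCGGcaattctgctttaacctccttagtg
Sesn1: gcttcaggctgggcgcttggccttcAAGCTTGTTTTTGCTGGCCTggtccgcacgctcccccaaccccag

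Among p53 and its inhibitors, the Trp53 transcript was slightly lower with PGE2, whereas Mdm2 and Mdm4 overlapped between the groups. Trp53 (ENSMUSG00000059552.13, chromosome 11 from 69580359 to 69591873) was at 81.1, 81.2 and 84.3 FPKM with vehicle and 68.7, 72 and 72.5 with PGE2, where libraries stand in the order of their replicate numbers, here and for the genes that follow. Every PGE2 library lay below every vehicle library, and the PGE2 mean was 86.4% of the vehicle mean (log2 change -0.21, SE 0.07, n = 3 per group). Mdm2 was at 34.9, 32 and 31.9 FPKM with vehicle and 33.5, 32.7 and 28.4 with PGE2. The Mdm2 groups overlapped, with a log2 change of -0.06 (SE 0.09), and it turned to 0.01 without PGE2 replicate 3.

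Mdm4 was at 18.5, 23.9 and 19.4 FPKM with vehicle and 19, 18 and 25.9 with PGE2. Its highest library was PGE2 replicate 3, and the log2 change of 0.01 (SE 0.16) changed sign to -0.28 in read coverage and to -0.19 in the FPKM of the assembled locus. It is 1 of 6 genes whose sign was not the same in all 14 planned fits, with Mdm2, Plk2, Apaf1, Rrm2b and Ddb2. The fits on assembled loci and on coverage with the replicate block are not among the 14. Ppm1d, the phosphatase Wip1 that switches off p53 and its kinases, was at 8.93, 8.99 and 9.17 FPKM with vehicle and 7.16, 7.97 and 8.05 with PGE2. The Ppm1d groups did not overlap, and the PGE2 mean was 85.6% of the vehicle mean.

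**Figure D2:**
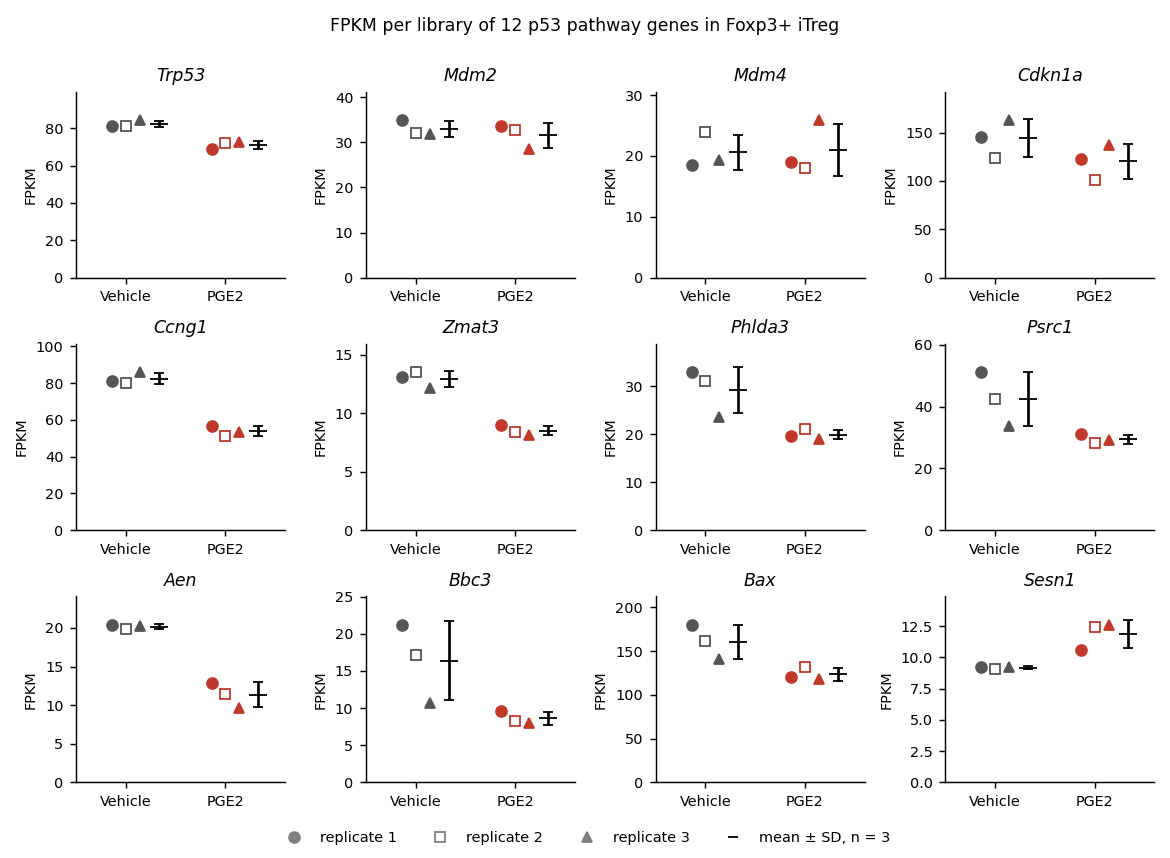
FPKM in each library (vertical axis, from 0) for 12 genes, by group and with the replicate number as symbol; black bars are mean ± SD over 3 libraries. Ccng1 and Zmat3 show tight groups that lie apart. The groups of Aen lie apart as well, tight with vehicle and wider with PGE2 (12.9, 11.4 and 9.67 FPKM). Phlda3, Psrc1, Bbc3 and Bax show vehicle replicate 3 nearest to the PGE2 libraries, and Sesn1 is higher with PGE2.

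The genes of arrest and growth control lay in both directions, from Ccng1 at the low end to Sesn1 at the high end. Of 9 tested, 6 had a lower fitted value, against 56.7% of all tested genes, and 3 a higher one. The median log2 change was -0.27. Ccng1 (ENSMUSG00000020326.7, chromosome 11 from 40748552 to 40755311) encodes cyclin G1, which brings a phosphatase to Mdm2. It was at 81.1, 80.1 and 85.8 FPKM with vehicle and 56.9, 51.3 and 53.6 with PGE2. The groups lay far apart beside their spread, 82.3 ± 3.02 against 53.9 ± 2.81 FPKM (SD, n = 3), with a log2 change of -0.6 (SE 0.08) in FPKM and -0.61 in coverage.

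Zmat3 (ENSMUSG00000027663.12, chromosome 3 from 32334792 to 32366014), a zinc finger protein that binds RNA, was at 13.1, 13.5 and 12.2 FPKM with vehicle and 8.98, 8.43 and 8.17 with PGE2. Its PGE2 mean was 66% of the vehicle mean (log2 change -0.55, SE 0.09), a share close to the 65.5% of Ccng1. Phlda3, a pleckstrin homology protein that keeps the kinase Akt from membranes, was at 32.9, 31.1 and 23.7 FPKM with vehicle and 19.6, 21 and 19.1 with PGE2. Psrc1, a protein of the mitotic spindle, was at 51.1, 42.4 and 33.8 FPKM with vehicle and 31.1, 28.2 and 29.2 with PGE2. For both, vehicle replicate 3, the shallowest library, was the lowest vehicle library and lay nearest to the PGE2 values. The log2 changes were -0.52 (SE 0.13) for Phlda3 and -0.49 (SE 0.15) for Psrc1.

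Cdkn1a (ENSMUSG00000023067.13, chromosome 17 from 29090979 to 29100722), which encodes the cyclin-dependent kinase inhibitor p21, was among the 3 most abundant of the 35, at 146, 124 and 163 FPKM with vehicle and 123, 101 and 137 with PGE2. The Cdkn1a groups overlapped, since PGE2 replicate 3 lay above vehicle replicate 2 (log2 change -0.27, SE 0.14). Within each replicate number the PGE2 library was at a similar share of its vehicle library, 84%, 81.5% and 83.8%. Cd82, a tetraspanin of the cell surface and the most abundant of the 35, was at 157, 160 and 157 FPKM with vehicle and 146, 160 and 140 with PGE2, with overlapping groups.

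The remaining genes of this role were equal or higher. Sesn1, a sestrin that restrains mTOR signalling, was at 9.23, 9.03 and 9.24 FPKM with vehicle and 10.6, 12.4 and 12.6 with PGE2. It was the 1 gene whose PGE2 libraries all lay above the vehicle libraries, at 130% of the vehicle mean (log2 change 0.34, SE 0.1), with 0.21 in coverage. Btg2, an antiproliferative protein that recruits the deadenylation machinery, was at 9.03, 9.07 and 11.1 FPKM with vehicle and 9.98 to 13.1 with PGE2, and within each replicate number it was higher with PGE2. Plk2, a polo-like kinase, was at 3.83 to 6.22 FPKM with vehicle and 4.65 to 6.25 with PGE2.

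On the log2(FPKM + 1) scale the lowest changes of the list were those of the death genes Bbc3 and Aen, while as a share of the vehicle mean the low-level genes Ak1 (50%) and Zfp365 (51.6%) were lower than Bbc3 (52.8%) and Aen (56.1%). With a pseudocount of 0.1 the log2 changes were -0.97 for Ak1, -0.94 for Zfp365, -0.86 for Bbc3 and -0.84 for Aen. Of 12 death genes tested, 10 had a lower fitted value, against 56.7% of all tested genes. For 8 of them the groups did not overlap, all lower with PGE2, against 11.9% of all tested genes. The median log2 change was -0.33. Nothing is read from these counts, since the contrast chose the genes. Aen (ENSMUSG00000030609.18, chromosome 7 from 78895854 to 78911209), an exonuclease that enhances apoptosis, was at 20.4, 19.8 and 20.3 FPKM with vehicle and 12.9, 11.4 and 9.67 with PGE2. The vehicle libraries were nearly equal, with a coefficient of variation of 1.43%, and the PGE2 mean was 56.1% of the vehicle mean. The log2 change of Aen was -0.79 (SE 0.11) in FPKM and -0.65 (SE 0.09) in coverage. It was -1.29 for the FPKM of the assembled locus that overlaps the gene, where that locus stood at 67.3, 22.2 and 19.8 FPKM with vehicle and 12.6, 14.9 and 9.38 with PGE2, so that vehicle replicate 1 stood apart.

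The BH3-only genes, whose products release Bax and its relatives, were lower as well. Bbc3, which encodes PUMA, was at 21.2, 17.2 and 10.7 FPKM with vehicle and 9.65, 8.33 and 7.93 with PGE2. Its vehicle libraries varied most of all 35 genes, with a coefficient of variation of 32.5%, and vehicle replicate 3 came within about 1 FPKM of PGE2 replicate 1. The log2 change of Bbc3 was -0.8 with an SE of 0.22. Pmaip1, which encodes NOXA, was at 9.02, 9.89 and 9.8 FPKM with vehicle and 8.69, 6.65 and 7.78 with PGE2. Bax, the effector that opens the outer mitochondrial membrane, was at 180, 161 and 141 FPKM with vehicle and 120, 132 and 118 with PGE2, so it was lower by more FPKM than any other of the 35. The Bax groups did not overlap, with a log2 change of -0.37 (SE 0.11).

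Among further genes of cell death, Apaf1, Triap1 and Pidd1 overlapped between the groups, and Ei24 and Trp53inp1 were lower without overlap. Apaf1, the core of the apoptosome, was at 10 to 12.5 FPKM with vehicle and 10.7 to 11.6 with PGE2, at 99.7% of the vehicle mean. Triap1, a mitochondrial protein that protects from apoptosis, overlapped between groups at 14.2 to 15.4 and 10.7 to 15.1 FPKM. Pidd1, a scaffold of caspase activation, was at 14.7 to 22.9 FPKM with vehicle and 13.4 to 15.2 with PGE2. Ei24, a protein of the endoplasmic reticulum with a part in autophagy, was at 42.5, 43.8 and 43.3 FPKM with vehicle and 34.8, 33.4 and 34.6 with PGE2. Both Ei24 groups were tight, with a difference of -0.32 (SE 0.07). Trp53inp1, a stress protein that modulates p53 activity and autophagy, was at 36.6, 37.5 and 45.5 FPKM with vehicle and 32.6, 27.3 and 33.7 with PGE2, without overlap.

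Values of the death receptors lay in different directions. Fas, the receptor for Fas ligand, was at 15.4, 14.7 and 14.7 FPKM with vehicle and 14.2, 16.8 and 19.7 with PGE2. Its groups overlapped, because PGE2 replicate 1 was the lowest library of all 6 and PGE2 replicates 2 and 3 were the highest. Tnfrsf10b, the receptor for TRAIL, was at 5.78, 6.24 and 5.52 FPKM with vehicle and 4.74, 4.14 and 4.83 with PGE2, and its groups did not overlap (log2 change -0.3, SE 0.1). Perp, a membrane protein of desmosomes, was at 5.43, 3.62 and 3.51 FPKM with vehicle and 3.07, 2.58 and 3.25 with PGE2, with a narrow gap between the groups.

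In DNA repair and nucleotide supply all 6 genes had a lower fitted value, against 56.7% of all tested genes. Their median log2 change was -0.15. For Ddb2 (-0.04, SE 0.1) and Rrm2b (-0.05, SE 0.11) the change was smaller than its SE and did not keep its sign across fits. As the contrast chose the genes, nothing is read from the count of 6. Zfp365, a zinc finger protein linked to genome stability, was at 3.3, 3.14 and 2.95 FPKM with vehicle and 2.07, 1.3 and 1.47 with PGE2. At 51.6% of the vehicle mean it had a log2 change of -0.67 (SE 0.14), at a low level. Polk, a polymerase that copies past damaged bases, was at 5.23, 6.48 and 6.44 FPKM with vehicle and 4.44, 5 and 4.51 with PGE2. Xpc, which recognises lesions for nucleotide excision repair, was at 8.51, 8.1 and 8.29 FPKM with vehicle and 7.98, 7.67 and 7.1 with PGE2, so its groups were separate by little.

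The other repair genes overlapped between groups. Ddb2, a sensor of ultraviolet lesions and the most abundant of this role, was at 22, 23 and 18.9 FPKM with vehicle and 19.5, 22.7 and 19.9 with PGE2. Its gene overlaps Acp2 on the opposite strand. Ercc5, a nuclease of excision repair, was at 8.36 to 10.4 and 7.93 to 8.72 FPKM. Rrm2b, the p53-induced subunit of ribonucleotide reductase, was at 3.47 to 4.44 and 3.48 to 3.84 FPKM, and it overlaps the gene model Gm3362 on the same strand, so its reads may be shared.

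Of the 4 metabolic genes, Dcxr and Ak1 had separate groups. Dcxr, a carbonyl and xylulose reductase, was at 23, 17.9 and 13.7 FPKM with vehicle and 13.6, 12.1 and 13.4 with PGE2. Vehicle replicate 3 was nearly equal to PGE2 replicate 1, so that the separation of Dcxr rests on a very small gap. Ak1, an adenylate kinase, was at 1.95, 1.15 and 1.46 FPKM with vehicle and 1.01, 0.38 and 0.881 with PGE2, and its log2 change of -0.52 (SE 0.19) was -0.28 in coverage. Tigar, which lowers fructose bisphosphate and glycolytic flux, was at 5.32 to 5.8 and 5.07 to 5.53 FPKM. Fdxr, the mitochondrial ferredoxin reductase, was at 10.2 to 11.1 and 9.51 to 10.5 FPKM.

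Set side by side by replicate number, 25 of 35 genes were lower with PGE2 in all 3, where 24.5% of all tested genes were. Higher in all 3 were 2 genes, Sesn1 and Btg2. The share of all tested genes that were higher in all 3 is not given here. The number of genes that were lower was 29 in replicate number 1, 29 in number 2 and 28 in number 3. Of all tested genes, 54.9%, 49.6% and 56.9% were lower in these numbers. The median log2 ratios were -0.24, -0.29 and -0.2, against -0.03, 0 and -0.05 for all tested genes. As the contrast chose the genes, nothing is read from these counts. The genes differed in which number gave the largest difference. Aen was at 63.2%, 57.3% and 47.7% of its vehicle library in numbers 1, 2 and 3, whereas Bbc3 was at 45.4%, 48.6% and 74.1% and Dcxr at 59.3%, 67.6% and 98.3%. Ccng1 (70.1%, 64% and 62.5%) and Zmat3 (68.3%, 62.6% and 67.2%) were even across the numbers. The coverage of 33 of the 35 genes had a change of the same sign as FPKM and at least 50% of its size, and the exceptions were Mdm4 and Apaf1. For the FPKM of assembled loci this held for 32. All 3 measures draw on the same reads, so neither count is an independent check of the FPKM values. Among 2213 genes with 1 transcript, coverage was nearly proportional to FPKM in every library, to 1% for 97.3% to 98.1% of them. The shares of all tested genes that met the same limits are not given here, so the 33 and the 32 are a description only.

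**Figure D3:**
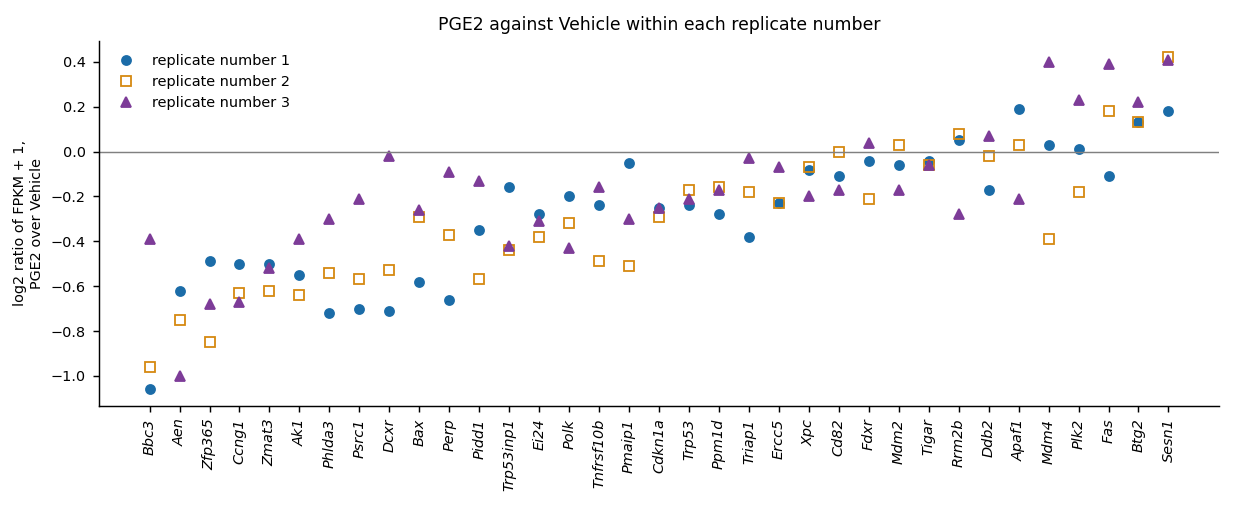
Log2 ratio of FPKM + 1, PGE2 over vehicle library of the same replicate number (vertical axis), for the 35 genes in order of their mean ratio; symbols are the replicate numbers 1, 2 and 3. All 3 symbols lie below 0 for 25 genes, and number 3 lies nearest to 0 for Bbc3, Phlda3, Psrc1, Dcxr and Perp.

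Other genes of the p53 pathway, which are not in the list above, were read from 4 further lists drawn from textbook knowledge. Of 88 tested genes on these lists, 0 rose and 0 fell by limma with Benjamini-Hochberg adjustment over all genes. Of all tested genes, 0.57% rose and 0.239% fell in that fit. An unadjusted p under 0.05 was reached by 4 higher and 11 lower genes. The share of all tested genes under that limit was not computed, so nothing is read from such counts, here or for each list. A fitted change below 0, counted for each list below, was found for 56.7% of all tested genes. With the replicate block 2 of the 88 rose and 4 fell, where 1.77% of all tested genes rose and 1.49% fell. In coverage 0 rose and 1 fell, where 0.768% of all tested genes rose and 0.363% fell. These genes belong to the same contrast and libraries, so they are not a replicate of it.

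Of 22 kinases and partners that activate or bind p53, 16 had a lower fitted value (median log2 change -0.11), 0 were called with or without the block, and 2 were lower at an unadjusted p under 0.05. These were Ppp1r13l and Ppp1r13b, members of the ASPP family of p53-binding proteins. Ppp1r13l was at 2.07, 2.01 and 1.78 FPKM with vehicle and 1.53, 1.32 and 1.14 with PGE2 (adjusted p = 0.28 with limma). Ppp1r13b was at 7.57 ± 0.876 and 6.01 ± 0.711 FPKM (SD, n = 3; adjusted p = 0.38 with limma). Rpl5, a ribosomal protein that binds Mdm2 and the most abundant of these genes, was at 591 ± 39 and 618 ± 53.7 FPKM (adjusted p = 0.89 with limma).

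Of 13 enzymes that ubiquitinate, deubiquitinate or deacetylate p53, 7 had a lower fitted value (median log2 change -0.07), 0 were called with or without the block, and 2 were lower at an unadjusted p under 0.05. Both were deubiquitinases that stabilise p53 or Mdm2. Usp10 was at 14.3, 15.9 and 15.1 FPKM with vehicle and 11.6, 11.7 and 10.1 with PGE2 (log2 change -0.41, SE 0.09; adjusted p = 0.11 with limma), and it overlaps the gene model Gm20388 on the same strand. Usp7 was at 44.1, 49.1 and 48.6 FPKM with vehicle and 44.1, 39.1 and 35.7 with PGE2 (adjusted p = 0.35 with limma), where PGE2 replicate 1 nearly equalled vehicle replicate 1. Hdac1, the most abundant of these genes, was at 114 ± 7.24 and 125 ± 5.09 FPKM (adjusted p = 0.57 with limma).

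Further direct targets of p53 went both ways. Of 33 tested, 21 had a lower fitted value, the median log2 change was -0.04, and an unadjusted p under 0.05 was reached by 4 higher and 7 lower genes, with 0 called by limma. With the replicate block Gls2 and Sfn rose, and Bid, Ephx1, Sesn2 and Slc19a2 fell. Bid, a BH3-only protein activated by death receptors, was at 8.34, 7.63 and 6.75 FPKM with vehicle and 5.01, 4.76 and 4.35 with PGE2, a log2 change of -0.59 (SE 0.11; adjusted p = 0.065 with limma, and 0.025 with the replicate block). Slc19a2, a thiamine transporter, was at 5.83 ± 0.5 and 3.89 ± 0.343 FPKM (SD, n = 3; adjusted p = 0.1 with limma, and 0.046 with the replicate block). Ephx1, an epoxide hydrolase, and Sesn2, a sestrin, are named because the block called them: Ephx1 had a log2 change of -0.52 (adjusted p = 0.22 with limma, and 0.032 with the block) and Sesn2 of -0.45 (adjusted p = 0.31 with limma, and 0.039 with the block). Bid overlaps Bcl2l13, and Gls2 overlaps Spryd4, each on the opposite strand.

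The target genes with the largest higher values were Gls2 and Sfn. Gls2, a mitochondrial glutaminase, was at 2.98, 3.21 and 2.19 FPKM with vehicle and 6.89, 6.03 and 4.8 with PGE2, a log2 change of 0.86 (SE 0.16; adjusted p = 0.066 with limma, and 0.013 with the replicate block). Sfn, the 14-3-3 sigma protein that holds cells before mitosis, was at 19.8, 18.2 and 15.5 FPKM with vehicle and 25.3, 29.8 and 24.7 with PGE2, a log2 change of 0.55 (SE 0.12; adjusted p = 0.095 with limma, and 0.036 with the replicate block). All PGE2 libraries lay above all vehicle libraries for both. Pcna, the sliding clamp of DNA replication and the most abundant of these targets, was at 322 ± 31.4 and 314 ± 36.1 FPKM (adjusted p = 0.93 with limma).

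Of 20 cell cycle genes that p53 lowers through p21 and the DREAM repressor complex, 0 were called with or without the block, 0 passed at an unadjusted p under 0.05, and 0 had groups that did not overlap, where 11.9% of all tested genes had separate groups that were lower with PGE2 and 7.81% ones that were higher. Their median log2 change was 0.06, with 7 of 20 below 0. Top2a, a topoisomerase of dividing cells and the most abundant of the 20, was at 154, 164 and 226 FPKM with vehicle and 169, 171 and 168 with PGE2 (adjusted p = 0.89 with limma), where vehicle replicate 3 stood above the other 5 libraries.

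**Figure D4:**
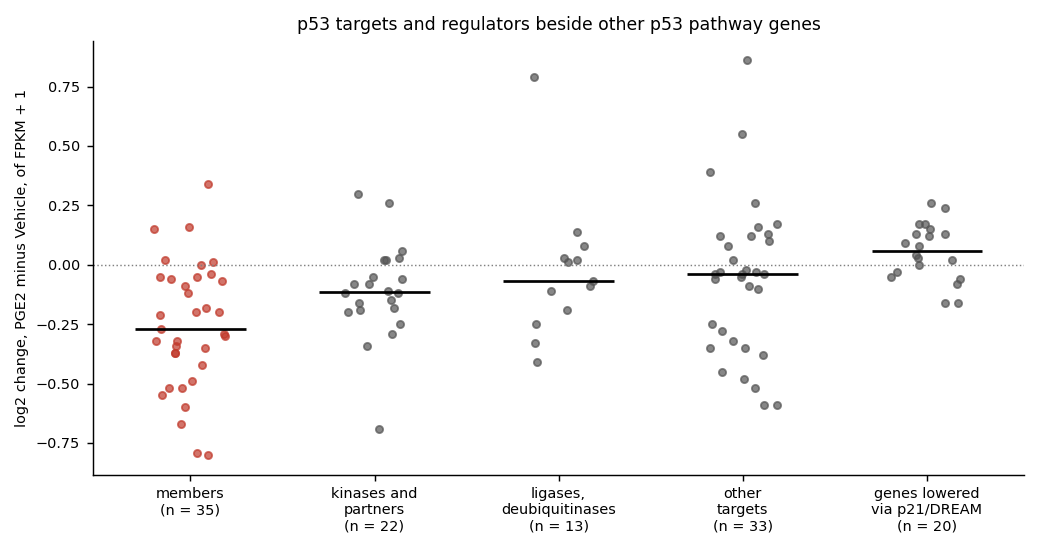
Log2 change of FPKM + 1 (PGE2 minus vehicle, vertical axis) of the 35 p53 targets and regulators, which were chosen from this contrast, and of the genes of 4 further p53 pathway lists; each point is a gene and the line is the median. The medians are -0.27 for the 35 genes and -0.11, -0.07, -0.04 and 0.06 for the 4 lists.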

How the data were processed

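Per the submitters' processing notes, reads were trimmed with Trim Galore and aligned with HISAT2 to mm10. The sources used here do not give tool versions, the annotation or the program behind the gene tables. Each library has 1 table which, per the file headers, lists coverage, FPKM and TPM per gene. FPKM was scaled by the authors to transcript length and library size. The deposited coverage is a signal (mean read depth along a gene). The deposited TPM column, a score here, counts assembled loci and annotated genes together and was not used.

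Rows with an Ensembl ID were kept, and repeated IDs were summed. The 12113 genes averaging 1 FPKM or more were tested together with limma 3.58.1 (R 4.3.3; trend, log2(FPKM + 1), two-sided, Benjamini-Hochberg, threshold 0.05), without covariates. The script was tested on simulated data. Coverage was divided by its median ratio to FPKM per library. Depth is that ratio over 2213 genes with 1 transcript. Alternatives were another pseudocount (0.1), no filter, a filter of 5 FPKM, quantile normalization, TPM over annotated genes, coverage, assembled loci, the replicate block and leaving out each library.

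Replicate numbers come from the titles, which do not say what they mark. Deviations from the group means correlated at 0.227, 0.312 and 0.529 between libraries of numbers 1, 2 and 3. Each was over 0.1, the limit set for taking the numbers as pairs, but PGE2 replicate 1 correlated more with vehicle replicate 2 (0.271). Whether the numbers pair the samples is therefore not settled. The main fit, with its SEs and adjusted p, left the numbers out, and the block fit is given beside it as an alternative.

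All 35 genes are annotated as protein coding in GENCODE M21 by ID without version, and coordinates are those of the deposited tables (mm10). The genes and lists were chosen with earlier results of these data known. Given in full are genes called or under an unadjusted p of 0.05, genes with separate groups, Trp53, Mdm2, Mdm4, Cdkn1a and the most abundant gene of each role; from each further list, up to 4 genes under an unadjusted p of 0.05 and the most abundant. Cop1 was matched by its older symbol. Promoter sequences are from RefSeq (GRCm38.p6). Python 3.11.15 with matplotlib 3.10.9 made the plots.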

Additional observations from a re-analysis of the deposited data

How the results depend on the processing

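Of the 35 genes, 26 had a change below 0 in each of the 14 planned fits that held them. A change above 0 in each was found for 3, while 6 changed sign. These fits leave out assembled loci and coverage with the block, and they reuse the 6 libraries whose contrast chose the genes. The share of all tested genes that kept the same sign was not computed, so nothing is read from these counts. The count of the 35 called lower was 3, and it was 1 without a filter on low values, 1 on TPM over annotated genes, 6 with the replicate block, 8 from coverage with the block (an alternative chosen after seeing the data), and 0 to 2 when 1 library was left out. Coverage with the block called 327 of all 12113 tested genes lower. Their median log2 change of -0.27 was -0.24 without a filter, -0.21 over genes of at least 5 FPKM, -0.24 after quantile normalization, -0.31 on TPM over annotated genes, and -0.3 to -0.22 when 1 library was left out. Genes with PGE2 libraries all above vehicle numbered 1, and 1 to 2 when 1 library was left out. Over all genes, 69 were called higher and 29 lower. These were 33 and 12 without a filter, 215 and 180 with the block, 16 to 53 and 4 to 16 when 1 library was left out, 13 lower on TPM over annotated genes and 44 lower from coverage. Among the 4 further lists the counts of 0 became 1 higher after quantile normalization, 2 higher and 4 lower with the replicate block, and 1 lower from coverage. Genes with paired p53 decamers fell from 13 to 5 at 2 mismatches (also chosen after seeing the data). Signs turned for Mdm4 on TPM over annotated genes (-0.03) and from coverage (-0.28), and when 1 library was left out for Mdm2 (-0.11 to 0.01), Mdm4 (-0.14 to 0.12; -0.05, -0.02 and -0.14 without vehicle replicate 1, vehicle replicate 3 and PGE2 replicate 3), Ddb2 (-0.12 to 0.02), Rpl5 (0 to 0.12), Pcna (-0.12 to 0.04) and Top2a (-0.18 to 0.09). Beside the calls given with their genes, the replicate block changed no other call among the 35 genes and the 4 lists. The cause of these differences was not tested. With counts not at hand, depth limits low genes such as Ak1 and Zfp365 in a way that cannot be put as an interval.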
